A study of Sus scrofa with 13 samples.

Results

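Macrophage and antigen presentation genes were followed in the longissimus lumborum, the main loin muscle of the pig, by RNA sequencing of 13 animals. The genes were 9 listed symbols, namely CD163, CD68, CD14, CSF1R, AIF1, TYROBP, CD74, SLA-DRA and B2M, and each was sought by symbol or by the reference name of its Ensembl identifier. Of these, 7 matched 1 identifier each among the 25322 identifiers of the count tables, while CD163 and CD74 matched none and are not analysed here. The pigs were females of the Hampshire and Pietrain breeds, all labelled as 6 months old, and within each breed they were grouped by loin weight. The Hampshire pigs with high loin weight were pigs 8, 9 and 10 and those with low loin weight pigs 1, 2 and 3. The Pietrain pigs with high loin weight were pigs 1, 2, 6 and 7 and those with low loin weight pigs 3, 5 and 8. The sample labels name no treatment, the numbers name different animals in the 2 breeds, and each sample came from 1 pig.

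Macrophages are the resident phagocytes of muscle, where they clear debris and take part in growth and repair. Antigen presentation runs along 2 routes. Class I molecules, which stand on nearly all nucleated cells, consist of a heavy chain and the B2M protein and carry peptides made inside the cell. Class II molecules, of which SLA-DRA gives the alpha chain of SLA-DR, stand mainly on macrophages, dendritic cells and B cells and carry peptides taken up from outside.

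The counted reads per pig ranged from 11312755 to 20134612, and the 10 most abundant genes took between 26.4% and 37.7% of them. This share was 31.2% to 37.7% in the Hampshire pigs and 26.4% to 29.8% in the Pietrain pigs, without overlap. Its part in the breed comparisons below was not tested. Values are given as CPM, the usual library-scaled count unit, with library sizes corrected by the TMM factors of edgeR. CPM are not divided by gene length, so they were compared between pigs and not between genes. The tissue label was checked with 9 skeletal muscle markers, whose summed level lay between 108300 and 286600 CPM in the 13 pigs. Of the markers of liver, brain and skin, NEUROD1 stayed under 1 CPM in every pig, but the summed level of the list was 403 CPM in Hampshire high pig 10 and 435 CPM in Pietrain low pig 8, where ALB alone had 415 CPM. A muscle sample holds several cell types, so fewer cells of a type and less RNA per cell cannot be told apart in the values below.

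In the Hampshire pigs, all 7 matched members had higher fitted values with high loin weight. Of the 7, 4 passed the test, against 12% of all genes that passed with higher values. The 4 members were CD14 (4.18-fold), TYROBP (2.59-fold), AIF1 (2.05-fold) and SLA-DRA (1.91-fold). In the Pietrain pigs, 0 of the 7 passed in edgeR or DESeq2, and 1 had an unadjusted p under 0.05 in edgeR. Among all genes in Pietrain, 0% passed in edgeR and 3.3% had an unadjusted p under 0.05. The plot of CPM by pig shows every value.

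**Figure D1:**
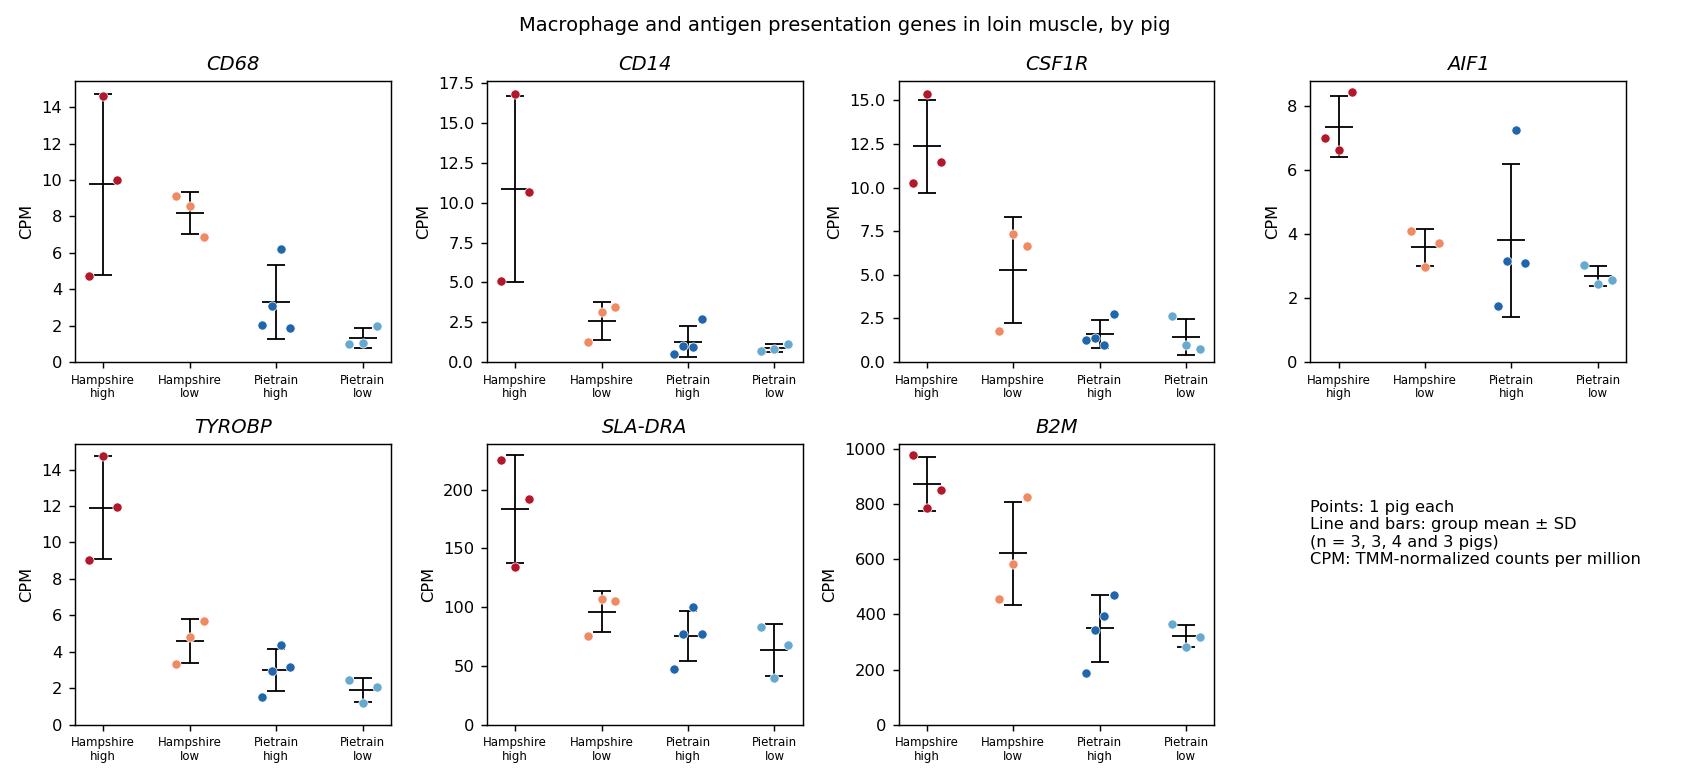
Level of the 7 genes in each pig, in CPM (vertical axes, from 0), for the Hampshire and Pietrain pigs with high and low loin weight. Each point is 1 pig, and the horizontal line and bars give the group mean and SD (n = 3, 3, 4 and 3 pigs). The Hampshire pigs with high loin weight had the highest mean for each of the 7 genes.

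CD14 is the surface receptor that hands bacterial lipopolysaccharide to the receptor TLR4. Its gene (ENSSSCG00000014369, chr2:148291451-148293622 on Sscrofa10.2) had 5.11, 16.8 and 10.7 CPM in Hampshire pigs 8, 9 and 10 with high loin weight, against 1.23, 3.11 and 3.43 CPM in pigs 1, 2 and 3 with low loin weight. The Hampshire groups did not overlap, and pig 9 was the highest. In the Pietrain pigs the high group had 0.507, 0.979, 0.909 and 2.70 CPM and the low group 0.657, 0.792 and 1.14 CPM. Only pig 7 of the Pietrain high group stood above its low group, and these values rested on few reads, as little as 7 counts in 1 pig. The difference between high and low loin weight in Hampshire was 2.06 on the log2 scale (SE 0.48, edgeR adjusted p = 0.0167). Without pig 9 it was 1.58 with an adjusted p of 0.0623 in edgeR.

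CSF1R, the receptor for the growth factor that keeps macrophages alive (ENSSSCG00000014441, chr2:157856239-157882290), had 10.3, 15.4 and 11.4 CPM in the Hampshire high group and 1.78, 7.34 and 6.66 CPM in the low group. These groups did not overlap either, and pig 1 of the low group was far below the other two. The Hampshire difference was 1.23 on the log2 scale (SE 0.43), with an adjusted p of 0.0638 in edgeR and 0.0166 in DESeq2. In Pietrain, CSF1R had 1.23, 1.40, 0.974 and 2.75 CPM in the high group and 2.63, 0.950 and 0.740 CPM in the low group. The Pietrain groups overlapped over nearly their whole range.

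TYROBP is the adaptor protein that carries the signal of several activating receptors of myeloid and NK cells. Its gene (ENSSSCG00000002919, chr6:40711873-40715184) had 9.06, 14.7 and 11.96 CPM in the Hampshire high group and 3.31, 4.81 and 5.68 CPM in the low group, with a wide gap between the groups. The difference was 1.37 on the log2 scale (SE 0.27, edgeR adjusted p = 0.00888), and TYROBP was the only member that passed with each of the 6 pigs left out in turn. The Pietrain high group had 1.52, 2.94, 4.35 and 3.15 CPM and the low group 2.46, 1.19 and 2.08 CPM. Of the Pietrain high pigs, 3 stood above all low pigs and pig 1 lay within their range.

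AIF1 is an actin-binding protein of macrophages and microglia. Its gene (ENSSSCG00000001408, chr7:27520797-27523556) had 7.02, 6.64 and 8.44 CPM in the Hampshire high group and 4.10, 2.97 and 3.71 CPM in the low group. The groups did not overlap, and AIF1 differed by 1.04 on the log2 scale (SE 0.24, edgeR adjusted p = 0.0163). The call was lost without high pig 10, low pig 2 or low pig 3, with adjusted p in edgeR of 0.0567 to 0.0628. The Pietrain high group had 1.74, 3.15, 7.27 and 3.10 CPM and the low group 3.04, 2.45 and 2.55 CPM. Pig 6 of the Pietrain high group was the only Pietrain pig within the range of the Hampshire high pigs for AIF1.

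CD68, a glycoprotein of lysosomes that is abundant in macrophages, did not pass in Hampshire. Its gene (ENSSSCG00000017956, chr12:55296985-55299524) had 4.70, 14.6 and 9.98 CPM in the Hampshire high group and 9.12, 8.56 and 6.87 CPM in the low group. The high group held both the highest and the lowest Hampshire pig, and the difference was 0.24 on the log2 scale (SE 0.36, edgeR adjusted p = 0.646). In Pietrain, the high group had 2.03, 3.08, 6.23 and 1.85 CPM and the low group 0.985, 1.03 and 1.95 CPM. The Pietrain difference was 1.33 on the log2 scale (SE 0.52), with an unadjusted p of 0.0268 and an adjusted p of 0.939 in edgeR. One high pig, with 1.85 CPM, lay below the highest low pig.

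SLA-DRA, the class II alpha chain (ENSSSCG00000001453, named HLA-DRA in the reference, chr7:29036552-29042147), had 225, 134 and 192 CPM in the Hampshire high group and 75.9, 107 and 106 CPM in the low group. The groups did not overlap, and the difference was 0.94 on the log2 scale (SE 0.22, edgeR adjusted p = 0.0182). The call was lost without high pig 8 or 10 or low pig 1 or 3, with adjusted p in edgeR of 0.0563 to 0.0631. The Pietrain high group had 47.4, 77.4, 99.9 and 77.0 CPM and the low group 83.1, 39.5 and 67.8 CPM, with one pig of the high group above all low pigs. Reads of the SLA genes may also be divided between alleles and related copies, so these levels carry that uncertainty.

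B2M, the light chain of class I molecules (ENSSSCG00000004682, chr1:141532505-141538781), had 980, 787 and 853 CPM in the Hampshire high group and 457, 585 and 825 CPM in the low group. Pig 3 of the low group lay within the range of the high group, and the difference of 0.49 on the log2 scale (SE 0.23) did not pass (edgeR adjusted p = 0.141). The Pietrain high group had 187, 345, 394 and 472 CPM and the low group 365, 281 and 320 CPM. The low Pietrain pigs fell inside the range of the high ones. RefSeq lists B2M under 2 entries in the pig, so its reads may be shared with a near-identical copy.

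These single values can be set against all genes tested. In Hampshire, 26.6% of the 12228 genes tested were called, meaning that the adjusted p lay under 0.05 and the fold change reached 1.2, and 12% were called higher with high loin weight, against 4 of the 7 members. The high pigs all stood above the low pigs for 5 of the 7 members and for 22.4% of all genes. The median log2 difference was 1.04 over the 7 members and 0.03 over all genes. By an exact permutation test (two-sided), CD14, CSF1R, TYROBP, AIF1 and SLA-DRA each reached p = 0.1, the smallest value that 3 against 3 pigs allow, B2M reached p = 0.2 and CD68 p = 0.8.

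**Figure D2:**
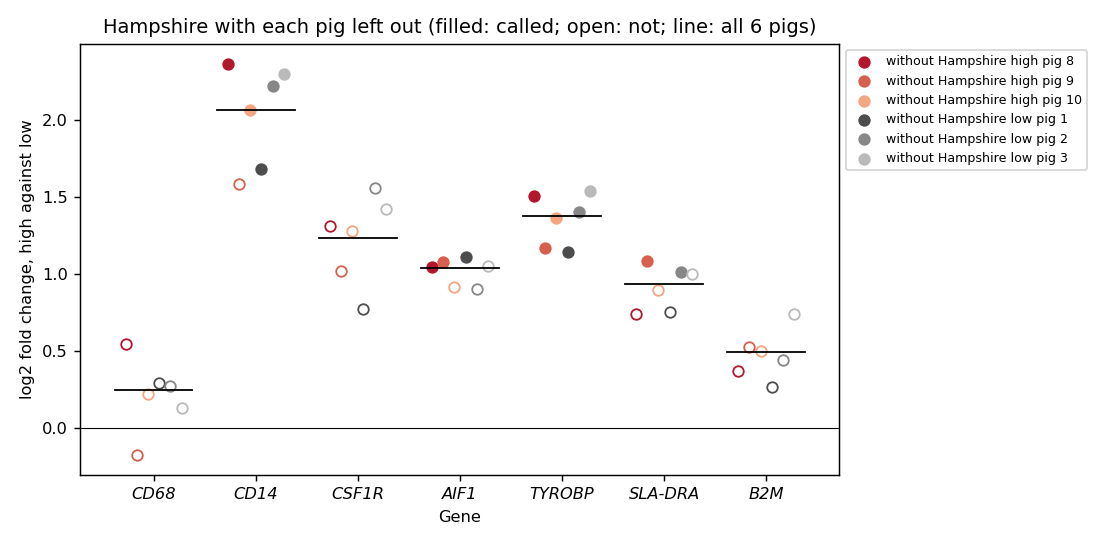
Log2 fold change of high against low loin weight in Hampshire (vertical axis) for each gene, with each of the 6 pigs left out in turn. Filled points passed the test, open points did not, and the line gives the value from all 6 pigs. TYROBP passed in 6 of the 6 fits, CD14 in 5, AIF1 in 3 and SLA-DRA in 2, and CD68 fell below 0 without high pig 9.

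The number of Hampshire members called lay between 2 and 3 with 1 pig left out. The result also depended on a step for gene length. CSF1R spans 26052 bases and the other members 2172 to 6277 bases, against a median of 18949 bases over the genes tested with a known span. Once the trend of fold change with gene span was removed, 2 members (CD14 and TYROBP) were called. That fit kept only genes with a known span, which 9975 identifiers had, so the set of genes tested changed as well. It was not the only setting that mattered. Over the 8 other settings of the closing section that left out no pig, CD14 and TYROBP were called in 8. AIF1 and SLA-DRA were called in 6 each, and CSF1R in 1.

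In Pietrain, edgeR called 0 of the 12065 genes tested (0%), so also 0 of the 7 members, and DESeq2 called 1 gene in all and 0 of the 7 members. At an unadjusted p under 0.05, 1 member (CD68) and 3.3% of all genes passed. The groups did not overlap for 0 of the 7 members, against 2.08% of all genes with the high group above. Each of the 7 members had a higher fitted value in the high group, from 0.15 for B2M to 1.33 for CD68 on the log2 scale, with a median of 0.54 against 0.02 over all genes. The exact permutation p lay between 0.143 for CD68 and 0.914 for B2M, where 4 against 3 pigs allow 0.0286 at the least. The paper, with DESeq2 at the same thresholds, did report differentially expressed genes between the Pietrain groups. Among them was IFI30 of the class II list below. The reason for this gap was not tested.

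The difference of the loin weight effect between the breeds was tested over all 13 pigs. Across 12831 genes 5.9% were called, and 22.1% had an unadjusted p under 0.05. Of the 7 members, edgeR called 0 and DESeq2 called 0, and 0 had an unadjusted p under 0.05 in edgeR. CD14 differed most, by 1.48 on the log2 scale (SE 0.81, edgeR adjusted p = 0.303), with the larger effect in Hampshire. CD68 went the other way, by -1.05 (SE 0.66, edgeR adjusted p = 0.384). The members' effects were therefore not shown to differ between the breeds.

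**Figure D3:**
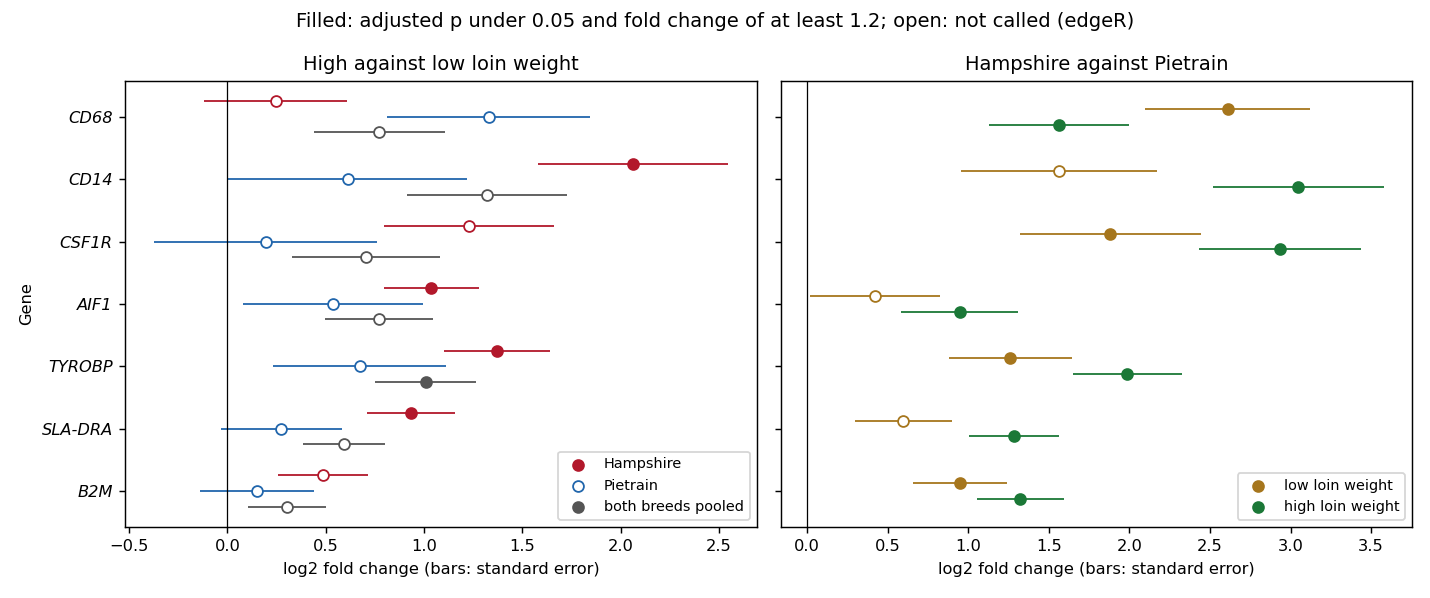
Log2 fold change (horizontal axes) with its standard error for each gene, on the left high against low loin weight in Hampshire, in Pietrain and pooled, and on the right Hampshire against Pietrain at low and at high loin weight. Filled points passed the test (edgeR adjusted p under 0.05, fold change 1.2 or more). In the left panel 4 Hampshire points and the pooled point of TYROBP are filled, and in the right panel 4 points at low and 7 at high loin weight.

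Averaged over the breeds, TYROBP alone was called higher with high loin weight, by 1.01 on the log2 scale (SE 0.26, edgeR adjusted p = 0.0253). Of all genes, 10.7% were called in this comparison and 3.01% were called higher. CD14 had 1.32 (adjusted p = 0.0518), SLA-DRA 0.59 (adjusted p = 0.0793) and AIF1 0.77 (adjusted p = 0.0831) in edgeR. DESeq2 called these 3 genes and TYROBP. The call of TYROBP held in 8 of 13 fits that left out 1 pig, and was lost without Hampshire high pig 9 or 10, Hampshire low pig 1, or Pietrain low pig 5 or 8 (edgeR adjusted p from 0.0551 to 0.0698).

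The breeds were compared at each loin weight. At high loin weight, the 7 matched members were all called higher in Hampshire than in Pietrain, in a comparison where 46.8% of all genes were called and 22.6% were called higher. CD14 was 8.26-fold higher (log2 3.05, SE 0.53, edgeR adjusted p = 0.000503) and CSF1R 7.64-fold (log2 2.93, SE 0.50, edgeR adjusted p = 0.000456). TYROBP was 3.96-fold, CD68 2.96-fold, B2M 2.50-fold, SLA-DRA 2.44-fold and AIF1 1.93-fold higher. The 5 members other than CD68 and AIF1 had no overlap between the breeds, against 24% of all genes with Hampshire above. The call of AIF1 (edgeR adjusted p = 0.0443) held in 1 of 7 fits that left out 1 pig, the one without Pietrain high pig 6, and was lost in the others (edgeR adjusted p from 0.0850 to 0.157). That of CD68 held in 6 of 7 and was lost without Hampshire high pig 9 (edgeR adjusted p = 0.0758). Over the 8 other settings of the closing section that left out no pig, AIF1 was called in 4 and CD68 in 7. The remaining 5 members were called in every such setting that tested them.

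At low loin weight, CD68 (6.11-fold), CSF1R (3.69-fold), TYROBP (2.40-fold) and B2M (1.93-fold) were called higher in Hampshire. Of all genes, 17.9% were called there and 7.84% were called higher. CD68 showed the largest difference of the members, 2.61 on the log2 scale (SE 0.51, edgeR adjusted p = 0.0120). CD14 (log2 1.56, adjusted p = 0.0853), SLA-DRA (0.60, adjusted p = 0.169) and AIF1 (0.42, adjusted p = 0.478) did not pass in edgeR. The breeds did not overlap for CD68, CD14, TYROBP and B2M, against 21.4% of all genes with Hampshire above. The call of CD68 held in 5 of 6 fits with 1 pig left out, failing without Pietrain low pig 5 (edgeR adjusted p = 0.0559). Those of CSF1R, TYROBP and B2M held in 2 of 6 each, and were lost without Hampshire low pig 2 or 3 or Pietrain low pig 5 or 8 (edgeR adjusted p from 0.0938 to 0.147). The counts of each breed were deposited as a table of their own, so breed and any step done apart for each breed cannot be told apart.

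The order of the 4 group means was the same for 6 of the 7 members: Hampshire high, Hampshire low, Pietrain high and Pietrain low. The share of all genes with this order was not determined, so the order is only a description. For AIF1 the Pietrain high group, at 3.81 ± 2.40 CPM (SD, n = 4), came before the Hampshire low group, at 3.59 ± 0.58 CPM (SD, n = 3). Hampshire high and Hampshire low did not overlap for 4 of those 6 members, against 22.4% of all genes with the high group above. Hampshire low and Pietrain high overlapped for 5 of the 6, and Pietrain high and Pietrain low for all 6. CD68 was the exception between Hampshire low and Pietrain high, since its lowest pig of the Hampshire low group (6.87 CPM) stood above its highest Pietrain pig (6.23 CPM).

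**Figure D4:**
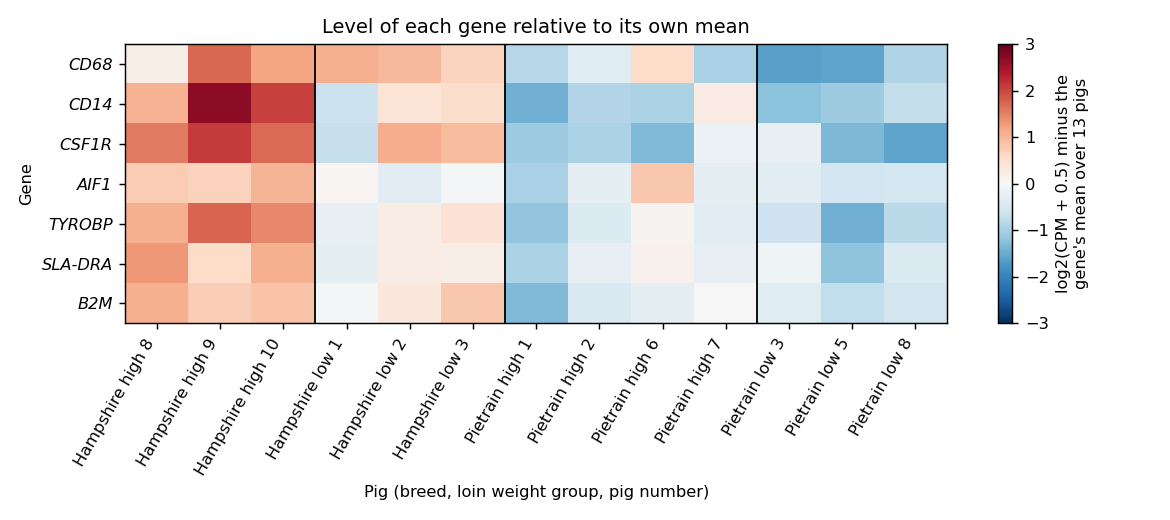
Level of each gene (vertical axis) in each of the 13 pigs (horizontal axis, black lines between groups) as log2(CPM + 0.5) minus the gene's mean over all pigs. Red is above and blue below the mean. Hampshire high pig 9 was the highest pig for 4 genes, and Pietrain low pig 5 was among the lowest 3 pigs for 7.

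Single pigs carried much of the spread within groups. Hampshire high pig 9 had the highest level of all pigs for CD68, CD14, CSF1R and TYROBP, while pig 8 of the same group led for SLA-DRA and B2M. Pig 9 also had the lowest TMM factor of all pigs (0.81), which raises its CPM. Its 10 most abundant genes took the largest share of counts (37.7%). Some markers of other cell types, such as DCN, LIPE and CKM, were highest in pig 9 as well, and others, such as MYH1, were not. Hampshire low pig 1 was the lowest of its breed for 5 members. In Pietrain, high pigs 6 and 7 were the highest of the breed for 4 and 3 members, and high pig 1 was the lowest for 3. From the lowest to the highest pig, the level varied 33.2-fold for CD14 and 20.8-fold for CSF1R, and 4.86-fold for AIF1.

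Once the group means were taken out, correlations among the members over the 13 pigs ranged widely. SLA-DRA followed B2M with a Pearson r of 0.75 and TYROBP with 0.67, and B2M followed TYROBP with 0.72. SLA-DRA had an r of 0.06 with CD68 and with CD14. CSF1R had an r of 0.61 with CD14 but -0.20 with AIF1 and -0.28 with CD68. Many other genes ranked higher than the members. Among 9814 genes, B2M was number 137 and TYROBP number 291 for SLA-DRA. For B2M, TYROBP was number 91, and for CSF1R, CD14 was number 637. The correlations are descriptions over 13 points that share their libraries.

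Among the 9815 genes ranked by this measure, those closest to SLA-DRA included IRF1 (r = 0.96), FADS1 (0.93), FAM13C (0.91) and PSMB8 (0.91). IRF1 is a transcription factor induced by interferon and PSMB8 a subunit of the immunoproteasome. The genes were picked for the highest r among all ranked, and a shared role with SLA-DRA was not tested. Closest to B2M were CDHR3 (0.94), GCNT1 (0.92), MFSD12 (0.90), PLCB2 (0.90) and BIN2 (0.89). For CSF1R, which was taken after its values were seen because CD163 had no identifier, they were CST3 (0.92), PFKL (0.92), TKFC (0.91), ORAI3 (0.90) and HTRA3 (0.89).

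Other macrophage genes were described as a list of 34 symbols without the members, of which 28 matched. In Hampshire 22 of the 23 tested lay above 0 and 5 were called higher, with a median of 0.97 on the log2 scale against 0.03 over all genes. Of all genes tested there, 51.6% lay above 0 and 12% were called higher. The called genes of the list were LYVE1, F13A1, FCER1G, SPI1 and CD53. LYVE1, a hyaluronan receptor of lymphatic vessels and of some tissue macrophages, had 8.68 ± 2.97 CPM in the high group and 1.85 ± 0.66 CPM in the low group (SD, n = 3 each), a log2 difference of 2.21 (edgeR adjusted p = 0.00461). CD53, a tetraspanin of leukocytes, differed by 1.08 (edgeR adjusted p = 0.0229). The complement genes C1QC (0.97, edgeR adjusted p = 0.0813) and C1QA (1.09, edgeR adjusted p = 0.0568), the list's highest in CPM, did not pass. The number called ranged from 1 (1 fit over all 13 pigs) to 12 (DESeq2), and was 1 without Hampshire high pig 9, 3 without high pig 10 and 2 without low pig 1 or 2. In Pietrain 18 of 19 lay above 0, 0 were called, and the median was 0.68.

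LYVE1 was called for a larger effect in Hampshire than in Pietrain, by 2.12 on the log2 scale (SE 0.51, edgeR adjusted p = 0.0282). Its Pietrain levels were 1.34 ± 0.18 CPM (SD, n = 4) with high and 1.26 ± 0.47 CPM (SD, n = 3) with low loin weight.

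The class II genes other than SLA-DRA went the same way in Hampshire. Of the 13 tested, 12 lay above 0 and 8 were called higher, against 12% of all genes called higher. Their median was 0.79 on the log2 scale. SLA-DMA, a subunit of the peptide-loading helper SLA-DM, had 18.5 ± 1.37 against 8.80 ± 1.31 CPM (SD, n = 3 each), a difference of 1.07 (edgeR adjusted p = 0.00575). The classical chains SLA-DQA1 (0.79, edgeR adjusted p = 0.0185) and SLA-DQB1 (0.93, edgeR adjusted p = 0.0147) were called too, while the protease gene LGMN had 0.18 (edgeR adjusted p = 0.681). The number called fell to 2 with scaling by library size only, and lay between 2 (without high pig 10 or low pig 1) and 5 with each of the 6 pigs left out. In Pietrain 10 of 12 lay above 0, 0 were called and the median was 0.28.

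Class I genes went both ways. Of the 20 identifiers tested in Hampshire, 3 were called higher and 3 lower, with a median of 0.10. These counts were near the shares of all genes, of which 26.6% were called and 12% were called higher. The chaperone gene CANX was lower with high loin weight (-0.84, edgeR adjusted p = 0.00855), CALR had 0.22 (edgeR adjusted p = 0.344) and the heavy chain gene SLA-1 had -0.46 (edgeR adjusted p = 0.503). TAP1, a chain of the peptide transporter, has 2 identifiers. ENSSSCG00000025618 held 0 to 5 counts in the Hampshire high pigs, 98 to 167 in the low pigs, 0 to 74 in the Pietrain high pigs and 0 in all Pietrain low pigs. Summed over both identifiers, TAP1 had 31.4 ± 6.87 CPM in the Hampshire high and 38.3 ± 16.7 CPM in the low group (SD, n = 3 each), so the contrast of that identifier was not that of the gene's total.

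Of 6 genes tested among ligands and adaptors of these receptors, 1 was called higher in Hampshire, near the 12% of all genes. It was LY96 (1.38, edgeR adjusted p = 0.0222), the partner of TLR4. HP had 3.06 (edgeR adjusted p = 0.0803), a value that rested on high pig 10 with 142 CPM and was 0.28 without it. CD47 had -0.08 (edgeR adjusted p = 0.811). Of the interferon response genes, 7 of 18 lay above 0 in Hampshire, 0 were called higher and 1 lower, and the median was -0.12. Of all genes, 26.6% were called there. GBP1 had -0.06 (edgeR adjusted p = 0.938) and MX2 -2.53 (edgeR adjusted p = 0.0638). In Pietrain 15 of the 18 lay above 0, 0 were called and the median was 0.58.

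**Figure D5:**
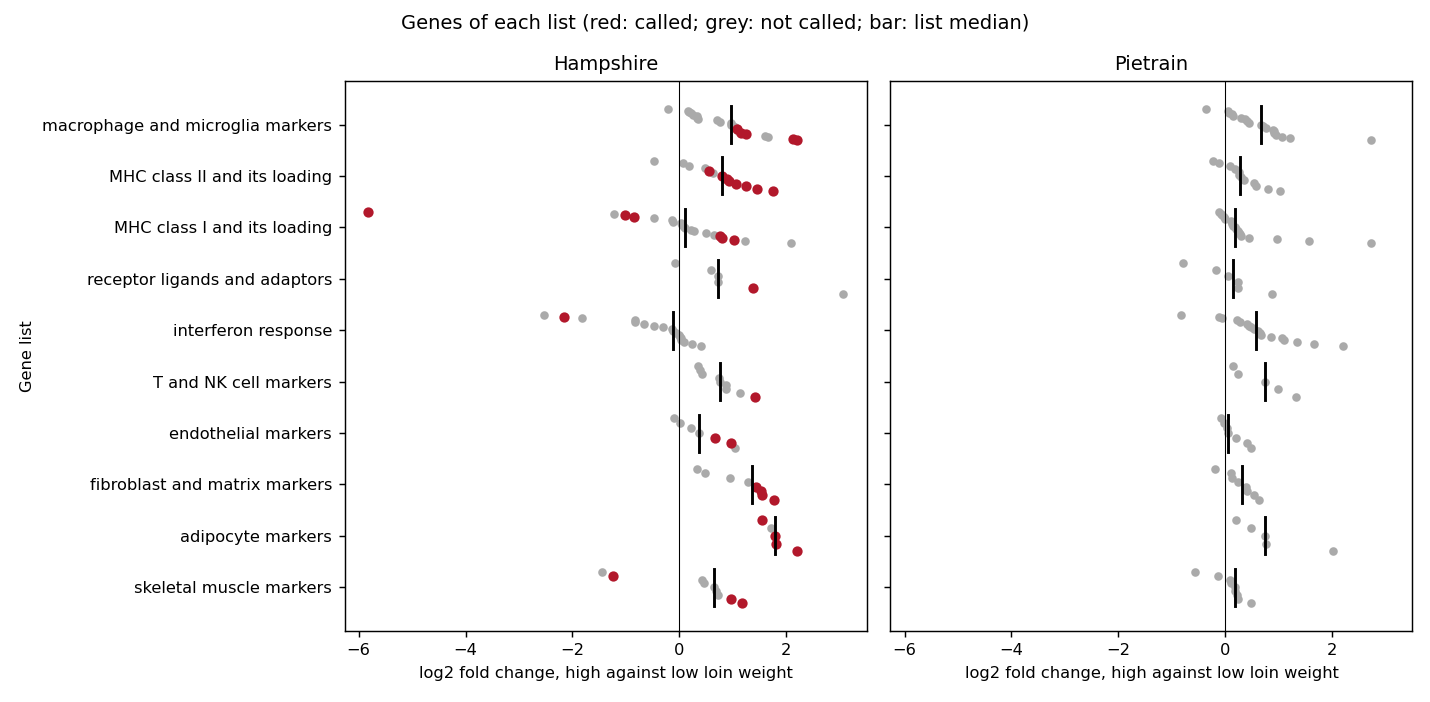
Log2 fold change of high against low loin weight (horizontal axes) for the genes of 10 lists, in Hampshire (left) and Pietrain (right). Each point is 1 gene identifier, red where called and grey where not, and black bars are list medians. In Hampshire 5 macrophage and 8 class II genes were called higher, beside 4 fibroblast and 4 adipocyte genes, and in Pietrain 0 genes were called. Of all genes tested in Hampshire, 12% were called higher.

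Markers of other cell types and organs were set beside the Hampshire result, where 12% of all genes were called higher. Of the 5 adipocyte markers tested 4 were called higher and the summed level was 196 to 357 CPM with high and 65.4 to 82.5 CPM with low loin weight. Of the 8 fibroblast and matrix markers 4 were called higher, and their sum was 2052 to 5164 CPM against 789 to 1700 CPM. The adipocyte number was 2 without high pig 9 or low pig 1 or 3, and the fibroblast number 2 without high pig 9 or 10 or low pig 1 or 2 and with scaling by library size only. Among endothelial markers 2 of 7 were called higher (238 to 278 CPM against 164 to 209 CPM), and among T and NK cell markers 1 of 9 (21.8 to 29.9 CPM against 12.9 to 17.4 CPM), the latter a share near that of all genes. Of the 9 skeletal muscle markers 7 lay above 0, with CKM and MYH7 called higher and MYH1 lower, a median of 0.66 on the log2 scale and sums of 201600 to 286600 CPM against 154000 to 226600 CPM. Of the 4 identifiers tested among the liver, brain and skin markers, both of APOA1, a lipoprotein gene of the liver, were called higher (1.98 and 0.99 on the log2 scale, edgeR adjusted p = 0.00664 and 0.0387), and the list's median was 1.49. The summed macrophage list was 214 to 322 CPM against 76.8 to 180 CPM. Between the breeds at high loin weight, 12 of 23 macrophage, 8 of 13 class II, 6 of 9 T and NK cell, 5 of 8 fibroblast and 3 of 5 adipocyte markers were called higher in Hampshire, against 22.6% of all genes. At low loin weight the numbers were 6, 4, 1, 0 and 0, against 7.84%. The part of these cell types and organs in the members' differences was not tested.

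Other leukocyte lists had few measurable genes, in a comparison where 26.6% of all genes were called in Hampshire. B and plasma cell markers summed to 9.21 to 11.1 CPM with high and 5.63 to 9.72 CPM with low loin weight in Hampshire, with 0 of 3 called by edgeR and CD79B, MS4A1 and MZB1 among those under 1 CPM in every pig. Neutrophil and mast cell markers had 0 of 2 called, with MPO and ELANE under 1 CPM. No dendritic cell marker reached the test, and BATF3 had 0 counts in all 13 pigs. Of the erythroid markers, a measure of blood in the sample, 0 of 3 were called, with 82.4 to 240 CPM in the high and 45.5 to 175 CPM in the low group.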

How the data were processed

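RNA of 13 loin muscle samples was sequenced by the authors (TruSeq RNA v2, which does not mark strand, single reads, 4 technical runs a pig). The authors deposited counts of reads per Ensembl gene, 1 table a breed. The submitters' processing notes name FastQC, STAR, RSEM, DESeq2 and Sscrofa10.2. The counts are whole numbers, and whether they were rounded from estimates is not given in the sources used here. The authors' comparison tables (fold changes, p-values) were used for names and positions (other columns: gene start and end) only. Names came from these and RefSeq (Sscrofa11.1).

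Each breed was tested with edgeR 4.0.16 in R 4.3.3 (TMM, filterByExpr, glmQLFit and glmQLFTest). The breed comparisons, the pooled effect and the difference between breeds used 1 fit over 13 pigs. Adjusted p-values are Benjamini-Hochberg values over all genes tested. A gene was called when the adjusted p was under 0.05 and the fold change reached 1.2. Standard errors came from the fold change and F statistic. Permutation tests and correlations used log2(CPM + 0.5). DESeq2 1.42.0 and the other settings of the closing section were alternatives. The code of the tests was checked on simulated counts with the same spread set for every gene. That check required the right direction and size of the changes put in. How often genes are called wrongly at the spread of these pigs was not tested. For the Pietrain high group the study's table of muscle weights counts 3 pigs while the labels list 4, all of which were used. Pigs of a group differed by more than sampling noise in all 15 pairs. Each pig is an animal of its own, so p-values measure the spread between animals. Depth limits CD14, CD68 and CSF1R most in Pietrain.

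The members and lists were chosen with earlier results of these data known. Named were all members and, from the first 5 lists, the 2 genes with the highest mean CPM and the 2 with the smallest p in Hampshire, and the called macrophage genes were named besides. A few genes that these rules pick are not reported here. Figures were drawn with matplotlib 3.10.9.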

Additional observations from a re-analysis of the deposited data

Results flagged for a closer look

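The loin weight effect of 3 list genes differed between the breeds by edgeR's test of the difference. LYVE1 had a larger effect in Hampshire (adjusted p = 0.0282), a call that was lost in 6 of 20 other settings. The second identifier of TAP1 (ENSSSCG00000025618) had an adjusted p of 0.0195, with 0 counts in all Pietrain low pigs. MX2, an interferon-induced GTPase, had 1.28 ± 0.77 CPM with high and 7.56 ± 8.64 CPM with low loin weight in Hampshire (SD, n = 3 each), against 3.63 ± 3.23 (SD, n = 4) and 0.792 ± 0.66 CPM (SD, n = 3) in Pietrain. Its adjusted p in edgeR was 0.0498, and the call was lost in 12 of 18 other settings.

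In the Pietrain high group, the only one with more than 3 pigs, 1 pig stood far from the other 3 for 3 of 26 genes checked. These were SLA-1 in pig 7 (324 CPM), HP in pig 7 (30.4 CPM) and MX2 in pig 6 (8.44 CPM). None of the 7 members was among them.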

How the results depend on the processing

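The settings were DESeq2, DESeq2 size factors in edgeR, library size only, no filter, at least 10 counts in every pig, no fold threshold, removal of the gene length trend, another choice of pigs in the fit, and leaving out each pig. Removal of the length trend kept only genes with a known span. The number of members called was then 2 in Hampshire, 0 in the pooled effect and 2 between the breeds at low loin weight. The pooled number was 4 with DESeq2 and 2 without a filter, and the number at low loin weight was 2 with library size only. With 1 pig left out, it was 2 to 3 in Hampshire, 0 to 4 pooled, 0 to 4 between the breeds at low and 5 to 7 at high loin weight. The 0 pooled came without Hampshire high pig 9 or 10, Hampshire low pig 1, or Pietrain low pig 5 or 8, and the 0 at low loin weight without Pietrain low pig 5. In Pietrain and for the difference between breeds, 0 members were called under each setting. The filter of 10 counts removed CD14 wherever Pietrain pigs were fitted. Aside from the fits that left out a pig, AIF1 and SLA-DRA each kept the Hampshire call in 6 of 8 other settings. Between the breeds at high loin weight, AIF1 was called in 4 of 8 such settings and CD68 in 7 of 8.

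Some log2 fold changes changed sign. In Hampshire CD68 was -0.16 with the length trend removed, and -0.18 (without high pig 9) to 0.55 with 1 pig left out. In Pietrain with 1 pig left out, CD14 ranged from -0.094 (without high pig 7) to 0.89, CSF1R from -0.24 (without high pig 7, with negative values also without low pigs 5 and 8) to 0.99, and B2M from -0.040 (without high pig 7) to 0.38. Among list genes in Hampshire, LGMN was -0.024 with library size only, and CALR -0.17 and CD47 0.14 with the length trend removed. With 1 pig left out, LGMN ranged from -0.12 to 0.33, SLA-1 from -0.91 to 0.048, CD47 from -0.20 to 0.058 and GBP1 from -0.76 to 0.28. None of these had been called, and the cause was not tested. Of 681 values of members under other settings, 613 kept direction and call, 48 lost the call, 13 gained one and 7 changed sign. The 613 include 99 values from Pietrain and 139 from the difference between breeds. No member was called in these comparisons, so no call could be lost there. With a pseudocount of 2 in place of 0.5, 0 of the 7 Pietrain permutation tests fell under 0.05, as before, and the Hampshire tests, with 3 against 3 pigs, cannot reach it. No paired analysis was possible because the high and low pigs of a breed share no pig number.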
